A study of Mus musculus with 3 samples.

Results

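The genes described here were 10 genes of fibrillar collagens, Col1a1, Col1a2, Col2a1, Col3a1, Col5a1, Col5a2, Col5a3, Col11a1, Col24a1 and Col27a1. They were chosen by name and not by a cut on measured values, although earlier results of these data were known. All 10 were among the 15393 genes with a measured probe, and each was represented by 1 probe. The remaining fibrillar chain, Col11a2, was not in the set and its values are given once, beside those of its partner. Expression was measured by 1-colour microarray in cardiac myofibroblasts, which are fibroblasts that contract and deposit matrix after an injury of the heart.

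The cells came from male C57BL/6J mice, for which the labels give an age of 8 weeks and, in the protocol, of 10 weeks at surgery. In every group the left anterior descending coronary artery had been tied permanently, the hearts were taken 3 days later and digested with enzymes, and cells that attached to plastic overnight were depleted of those with CD45, the surface marker of leukocytes. The adherent group was cultured on plastic plates, the non-adherent group was the plate culture moved on into suspension, and the re-adherent group was put back from suspension onto plates. Each group was 1 array of RNA mixed from several hearts, so there was no spread between biological replicates, no test was possible, and the small number of arrays sets the precision. The states were sampled one after another, so time in culture and the survival of a part of the cells in suspension cannot be told apart from the state. The study asked which genes follow mechanical support, and collagen genes were among its main readouts.

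Fibrillar collagens are the rod-like proteins that form the load-bearing fibres of connective tissue. Each molecule is a triple helix of 3 chains, and the chains of a type are often encoded by different genes. Type I, built from the Col1a1 and Col1a2 chains, makes up most of the fibres of a cardiac scar, and type III, built from Col3a1 alone, is laid down with it. Type V, from Col5a1, Col5a2 and in some tissues Col5a3, starts and limits the width of type I fibrils, while type II, from Col2a1, and type XI, which contains Col11a1, are known mainly as cartilage collagens. Col24a1 and Col27a1 encode chains of an evolutionarily distinct branch, known from developing bone and cartilage.

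Signals are background-subtracted intensities in scanner units, given in culture order, first adherent, then non-adherent, then re-adherent. Levels are the log2 signal minus the log2 of the 75th percentile of the same array, which was 651, 697 and 541 on the 3 arrays, and all differences, folds and percentages were taken after this scaling. An error given with a difference is the technical error that the scanner software assigned to both spots, which for most genes was about 0.20 on the log2 scale and says nothing about other cultures. A signal not well above background allows only a bound on a fold. On every array 7 of the 10 genes were well above background, Col2a1 failed this in suspension, and Col24a1 and Col27a1 failed it after re-adhesion. Over all non-control spots, 53.9% to 59.9% were well above background. The signals come from bulk RNA, in which fewer cells of a type and less RNA per cell cannot be told apart.

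The promoters below show the sequence just upstream of 3 of the genes that moved differently into suspension: Col1a2 was lower there, Col3a1 was within the technical error, and Col24a1 was higher. They are the 250 bases before the RefSeq start in build GRCm38.p6, all on the plus strand, at chr6:4505368-4505617, chr1:45311288-45311537 and chr3:145292222-145292471, and capitals mark the letters of the motifs searched on both strands.
Col1a2: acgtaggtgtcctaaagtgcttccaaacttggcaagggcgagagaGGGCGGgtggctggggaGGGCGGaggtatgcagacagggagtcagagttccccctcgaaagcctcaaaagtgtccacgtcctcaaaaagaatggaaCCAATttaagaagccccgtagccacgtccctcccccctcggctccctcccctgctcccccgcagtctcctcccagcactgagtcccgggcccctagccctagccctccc
Col3a1: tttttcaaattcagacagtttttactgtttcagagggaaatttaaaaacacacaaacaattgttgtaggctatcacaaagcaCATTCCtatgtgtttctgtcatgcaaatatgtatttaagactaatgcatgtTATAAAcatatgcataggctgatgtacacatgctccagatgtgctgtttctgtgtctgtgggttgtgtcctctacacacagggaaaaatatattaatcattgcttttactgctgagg
Col24a1: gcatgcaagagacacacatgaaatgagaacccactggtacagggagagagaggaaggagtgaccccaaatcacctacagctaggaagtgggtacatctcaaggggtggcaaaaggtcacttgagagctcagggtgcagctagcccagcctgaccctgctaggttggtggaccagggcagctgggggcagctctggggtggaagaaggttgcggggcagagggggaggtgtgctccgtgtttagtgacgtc

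Promoter sequence was found for 7 of the 10 genes, and the motifs searched were CCAAT, the box read by NF-Y, GGGCGG, the GC box read by Sp1, TATAAA, the TATA box, GGAATG, the core read by TEAD factors, and TGANTCA, the AP-1 element. In Col1a2 the capitals are GGGCGG at 205 to 200 and at 188 to 183 bases before the start and CCAAT at 109 to 105. In Col3a1 they are GGAATG, read on the other strand, at 168 to 163 bases before the start and TATAAA at 117 to 112, and in Col24a1 none of the 5 motifs was found. No match overlapped another. CCAAT was in 3 of the 7 promoters, Col1a2, Col5a3 and Col11a1, and in 33.9% of all 32851 promoter windows of this length. GGGCGG was in 5 of 7, Col1a2, Col5a1, Col5a3, Col11a1 and Col27a1, and in 32.7% of all. TATAAA and GGAATG were each in 1 of 7, Col3a1, and in 12.4% and 12.6% of all windows, and TGANTCA was in 0 of 7 and in 6.75% of all. The GC content of the Col1a2, Col3a1 and Col24a1 windows was 62.0%, 35.2% and 58.0%, beside a median of 52.4% over all windows. A match is a run of letters and not a known binding site.

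Both type I chains were lower on the non-adherent array, Col1a2 by about 2-fold, and both stood between the other arrays after re-adhesion. Col1a1 (NM_007742) gave signals of 183904 on plates, 120960 in suspension and 127093 back on plates. After scaling, the non-adherent level was 61.5% of the adherent one and the re-adherent level 83.1%, a log2 difference of -0.70 into suspension (technical error 0.20), 0.44 on re-adhesion and -0.27 between the plate cultures. Col1a2 (NM_007743) gave 345275, 183787 and 227241, again highest on the adherent and lowest on the non-adherent array. Its level was 49.7% of the adherent one in suspension and 79.1% after re-adhesion, with log2 differences of -1.01, 0.67 and -0.34. The loss into suspension kept its direction under every scaling tried, whereas the gain on re-adhesion turned to -0.37 for Col1a1 and -0.17 for Col1a2 with quantile normalisation.

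The 2 chains of type I, which assemble in a fixed ratio, moved by nearly equal amounts. The Col1a1 difference minus the Col1a2 difference was 0.31 into suspension, -0.23 on re-adhesion and 0.07 between the plate cultures, each with a technical error of 0.29. Only the first of these exceeded its error, and by little. Under the alternative settings these partner differences stayed on the same side of 0.

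Col3a1, the type III chain, did not follow type I. Its probe (NM_009930) gave signals of 81162, 99044 and 39909, highest in suspension and lowest after the return to plates. The level in suspension was 114% of the adherent one, a log2 difference of 0.19 that lay within the technical error of 0.20 and became -0.24 when the arrays were scaled on the E1A_r60 control probes. After re-adhesion the level was 59.1% of the adherent one, with a log2 difference of -0.95 from suspension and -0.76 from the adherent array, both negative under every setting tried.

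**Figure D1:**
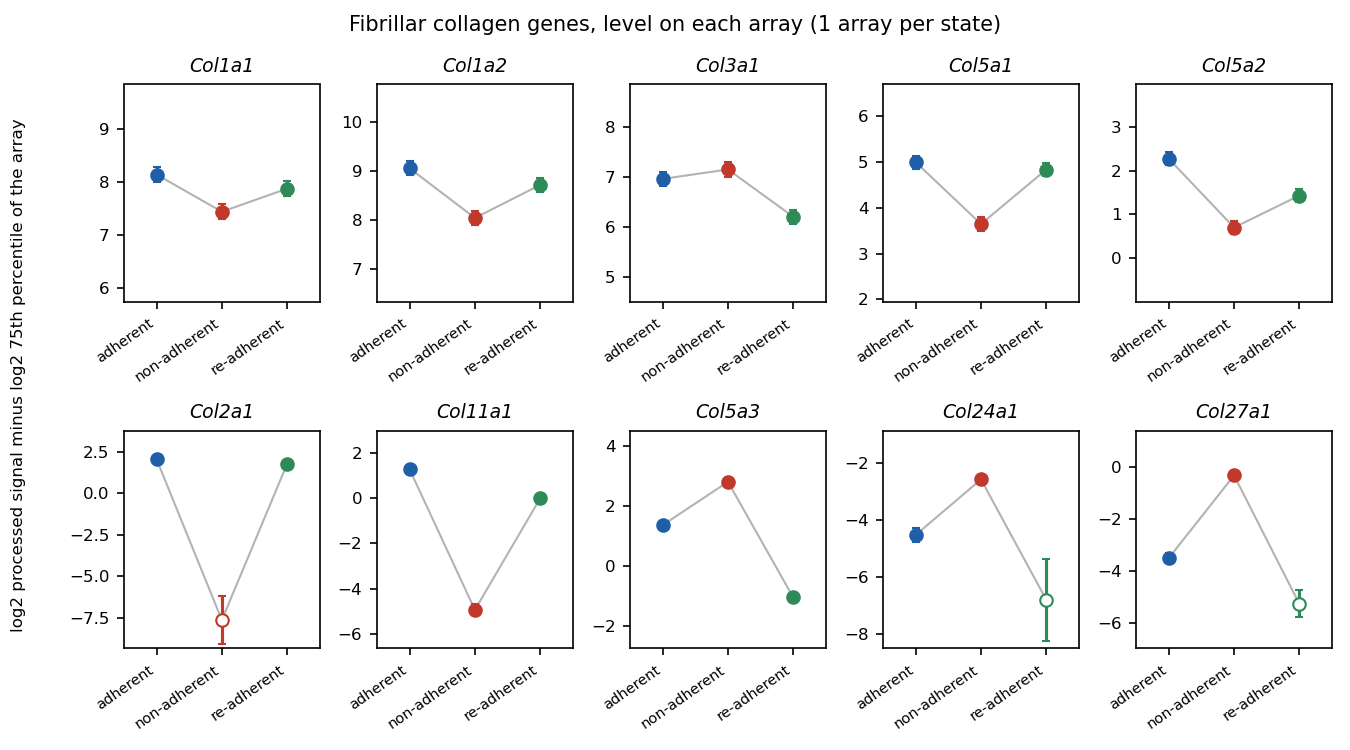
Level of each of the 10 fibrillar collagen genes in the adherent, the non-adherent and the re-adherent culture, 1 array per point, as log2 processed signal minus the log2 75th percentile of the array. Bars are the technical error from the scanner software, open points are signals not well above background, each panel has its own range of levels, and Col2a1 and Col11a1 dip in suspension while Col5a3, Col24a1 and Col27a1 peak there.

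The type V chains split into a pair that was lower in suspension and a single chain that was higher. Col5a1 (NM_015734) gave signals of 20796, 8715 and 15483 in the same order of arrays, and Col5a2 (NM_007737) gave 3156, 1133 and 1463. Both were highest on the adherent array and lowest in suspension. Col5a1 stood at 39.2% of its adherent level in suspension and at 89.5% after re-adhesion, with log2 differences of -1.35 and 1.19 for the 2 steps. Col5a2 stood at 33.5% and 55.7%, with differences of -1.58 and 0.73, so its return was less complete. The difference between the chains on re-adherent against adherent plates, Col5a1 minus Col5a2, was 0.68 with a technical error of 0.29, larger than the 0.22 between them into suspension.

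Col5a3, the third and rarer type V chain, moved the other way. Its signals (NM_016919) were 1672 on plates, 4889 in suspension and 260.2 back on plates. Suspension was therefore its highest state and the re-adherent culture its lowest, below the adherent array as well. The level was 2.73-fold higher in suspension than on the adherent array, a log2 difference of 1.45. It was then 14.6-fold lower after re-adhesion, a difference of -3.87, which left 18.7% of the adherent level. Set against its partner chains, the Col5a3 difference exceeded that of Col5a1 by 2.80 into suspension and that of Col5a2 by 3.03, and on re-adhesion the same comparisons gave -5.06 and -4.60, all with a technical error of 0.29. Thus, relative to its own adherent level, Col5a3 stood above both partners in suspension and below both after the return to plates.

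Col2a1, the type II chain of cartilage, showed the largest change of the 10 genes. Its signals (NM_001113515) were 2719.6 on plates, 3.52 in suspension, where the probe was not well above background, and 1864 back on plates. The adherent level was at least 208-fold above the level in suspension, and the re-adherent level at least 171-fold above it. The re-adherent culture held 82.4% of the adherent level, a log2 difference of -0.28 with a technical error of 0.20. Since the dim signal carries a large error of its own, the measured differences of -9.69 and 9.41 (technical error 1.45) are no more than estimates, and the normexp background model gave -5.32 and 5.04.

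Col11a1, the type XI chain found with type II in cartilage fibrils, had the same order of arrays. It gave signals (NM_007729) of 1584, 22.6 and 540.5, all well above background. In suspension it held 1.33% of its adherent level, 75.1-fold lower, with a log2 difference of -6.23 and a technical error of 0.29. On re-adhesion it was 30.8-fold higher, a difference of 4.95, and it reached 41.0% of the adherent level, a difference of -1.29. With normexp the first 2 differences were -4.35 and 3.24, which ends the 16-fold call on re-adhesion. Its return was less complete than that of Col2a1, with a difference between the genes of -1.01 on the log2 scale with a technical error of 0.29. Col11a2 (NM_009926), the partner chain of type XI, gave 30.5, 88.5 and 31.1, which put suspension highest. The difference of Col11a1 minus that of Col11a2 was -7.67 into suspension and 6.09 on re-adhesion, with technical errors of 0.42 and 0.43. Over the settings tried these values ran from -7.72 to -4.88 and from 3.60 to 6.09. The log2 difference of Col11a2 itself into suspension was 1.44, and 0.53 with normexp.

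Other cartilage markers gave a mixed picture beside these genes. Of 12 chondrocyte markers 7 were measured, their summed signal in units of the 75th percentile was 40.7, 28.4 and 36.0, and into suspension 1 was lower and 2 were higher by over 2-fold. Sox9, the transcription factor that activates Col2a1 in cartilage, gave signals of 4413, 1482 and 3858, with log2 differences of -1.69 and 1.76. Acan, the main cartilage proteoglycan, was at 71.2, 41.0 and 51.6. The 2 that were higher in suspension were Cnmd and Comp. Cnmd, a cartilage glycoprotein, gave 3.52, 159 and 10.3 and was not well above background on either plate array. In suspension it was at least 8.87-fold above the adherent level. Comp gave 282, 1956 and 92.5, with log2 differences of 2.70 and -4.04. The list was short of Matn1, Matn3, Hapln1, Col10a1 and Sox6, which had no measured probe.

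Col24a1 and Col27a1 were higher in suspension, and after re-adhesion neither was well above background. Col24a1 (NM_027770) gave signals of 28.1, 116 and 4.83, and Col27a1 (NM_025685) gave 57.2, 552 and 14.1. Suspension was the highest state of both. Col24a1 was 3.86-fold above its adherent level there, a log2 difference of 1.95 with a technical error of 0.30, and Col27a1 was 9.01-fold above it, a difference of 3.17 with a technical error of 0.23. The level in suspension was at least 4.91-fold above the re-adherent one for Col24a1 and at least 23.4-fold for Col27a1. Against the adherent array the re-adherent level was lower by at least 1.27-fold and at least 2.59-fold. With normexp the differences into suspension were 0.84 for Col24a1, which ends its 2-fold call, and 2.16 for Col27a1. The same model reduced the measured re-adherent minus adherent difference of Col24a1 from -2.28 to -0.15 and that of Col27a1 from -1.75 to -0.41.

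Counted together, the 10 genes went into suspension in both directions. On the non-adherent against the adherent array, 5 were over 2-fold lower, Col1a2, Col5a1, Col5a2, Col2a1 and Col11a1, beside 14.7% of all 15393 genes. Another 3 were over 2-fold higher, Col5a3, Col24a1 and Col27a1, beside 17.2% of all genes. Col1a2, at -1.01, was past 2-fold by the least, and its call ended with scaling on the median spot (-0.93), without scaling (-0.91), with the series matrix (-0.91) and with quantile normalisation (-0.48). Over 16-fold, the rule the study used for its own gene sets, 2 were lower, Col2a1 and Col11a1, beside 1.03% of all genes, and 0 were higher, beside 0.546%. By sign alone 6 were lower and 4 higher, beside 53.2% and 46.8% of all genes. The median difference of the 10 was -0.86, that of all genes -0.07.

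On re-adhesion the genes again went in both directions. Over 2-fold, 3 genes were higher after re-adhesion than in suspension, Col5a1, Col2a1 and Col11a1, beside 15.6% of all genes, and 3 were lower, Col5a3, Col24a1 and Col27a1, beside 16.3%. Past 16-fold were Col2a1 and Col11a1 on the higher side, 2 genes beside 1.56% of all, and Col24a1 and Col27a1 on the lower side, 2 genes beside 0.864%, although the bound for Col24a1 guarantees only 4.91-fold, and with normexp the differences of Col24a1 and Col27a1 were -0.99 and -2.57. By sign 6 were higher and 4 lower, beside 53.7% and 46.3% of all genes, with a median of 0.55 for the 10 and 0.08 for all genes. The call of Col5a1, at 1.19, ended without scaling (0.83), with quantile normalisation (0.91) and with the series matrix (0.92). This comparison and the previous one share the non-adherent array, so a deviation of that array would enter both with opposite signs.

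The return to plates left every one of the 10 genes below its adherent level. The log2 difference of the re-adherent against the adherent array was between -2.42 for Col5a3 and -0.16 for Col5a1, and all 10 were below 0, beside 43.9% of all genes, with 0 above it, beside 56.1%. For Col5a1 the difference was smaller than the technical error of 0.20, and for Col1a1, Col1a2 and Col2a1 it exceeded that error by less than the error itself. By measured signal 4 genes were over 2-fold lower, Col5a3, Col24a1, Col27a1 and Col11a1, beside 4.90% of all genes, although the bound for Col24a1 guarantees only 1.27-fold and the count was 3 with dim signals raised to the floor of the array, and 0 were over 2-fold higher, beside 4.84%. None lay past 16-fold, beside 0.065% of all genes lower and 0.396% higher. The median of the 10 was -0.80, that of all genes 0.06.

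These 10 signs did not turn with the settings tried, but the background share moved. Under each of the 10 alternatives, every gene of the set that was measured stayed below 0 on the re-adherent against the adherent array. The share of all genes below 0 was 85.2% when the arrays were scaled on the E1A_r60 control probes, 68.3% without scaling, 60.5% with the values deposited in the series matrix, 50.1% with quantile normalisation, 37.8% with normexp and 36.0% with scaling on the median spot. On the control-probe scale, therefore, genes below 0 were the large majority of the array.

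**Figure D2:**
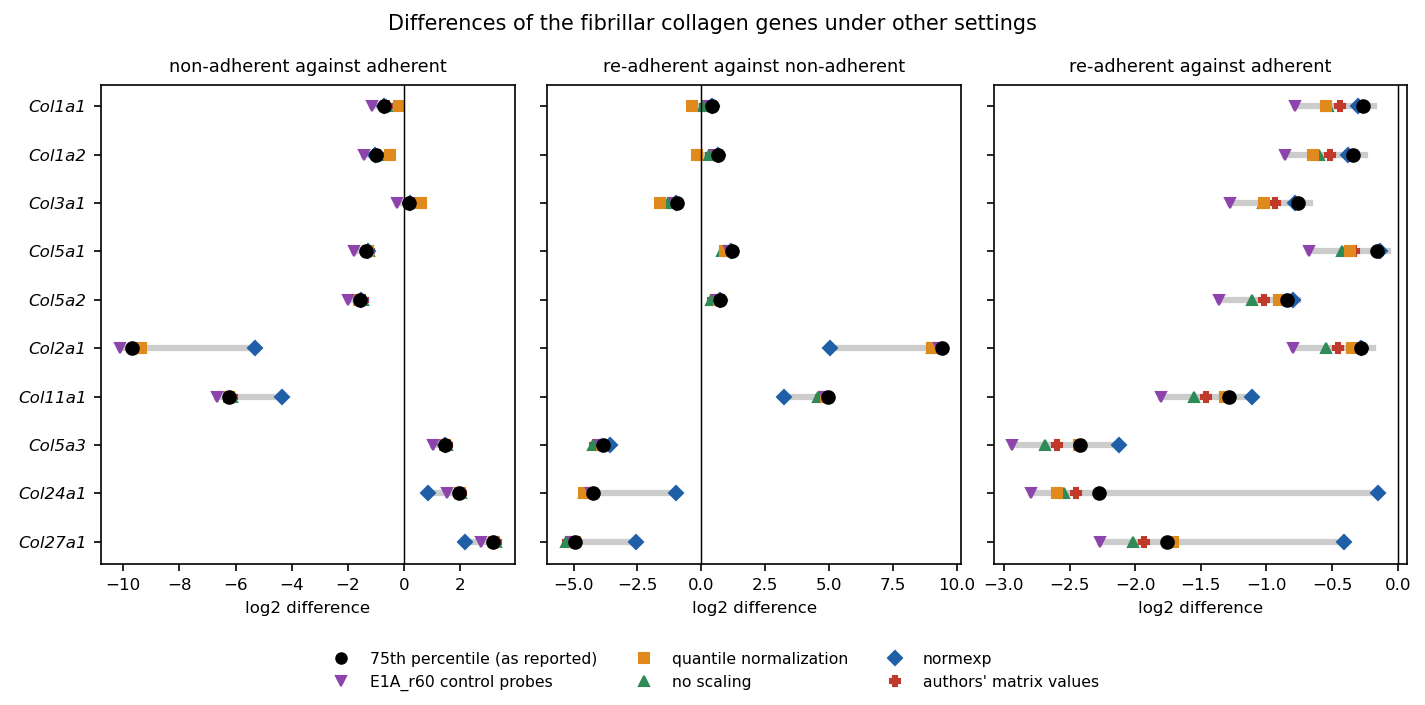
Log2 difference of each fibrillar collagen gene in the 3 pairs of arrays, as reported (black points) and under 5 other settings (coloured symbols), with the grey bar spanning all 10 alternatives. In the right panel every symbol lies below 0, and in the left and middle panels the bars of Col2a1, Col11a1, Col24a1 and Col27a1 are widened by normexp.

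The other collagen genes past 2-fold also lay on both sides for both steps, and by measured signal only on the lower side between the plate cultures. Of 33 listed non-fibrillar collagen genes 22 were measured, and on the non-adherent against the adherent array 5 were lower and 6 higher by over 2-fold, with a median log2 difference of 0.0049. On the re-adherent against the non-adherent array 6 were lower and 3 higher, with a median of -0.16. Between the plate cultures 6 were over 2-fold lower and 0 higher, 14 of the 22 were below 0, and the median was -0.22. Of the 6, Col15a1 and Col28a1 were not well above background after re-adhesion, with bounds of at least 2.49-fold and 2.22-fold. Col26a1 was dim on both plate arrays, so its fold has no bound. Over the settings tried this median ran from -0.74 on the control-probe scale to -0.0080 with normexp. The set of 10 and this list were not tested against each other.

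Among 16 other collagen genes that were well above background throughout, those whose 2 steps lay nearest to the mean of Col1a1 and Col1a2 were mostly chains of type IV, the network collagen of basement membranes. Distance here is the straight-line distance between pairs of log2 differences, over these 3 arrays. Col4a4 was nearest at 0.32, with differences of -0.55 into suspension and 0.49 on re-adhesion, on a probe with low signals of 80.5, 59.0 and 64.3. Col4a2 followed at 0.37, with -0.80 and 0.92, and Col4a6 at 0.38, with -0.68 and 0.89. Col9a1, a cartilage collagen on a dim probe, was at 0.80 and Col4a5 at 1.02. Unlike the type I chains, Col4a2 and Col4a6 had small positive differences between the plate cultures, 0.11 and 0.21, each with a technical error of 0.20. Both turned negative on the control-probe scale. Col4a4 and Col4a5 were slightly below 0, at -0.058 and -0.0051.

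**Figure D3:**
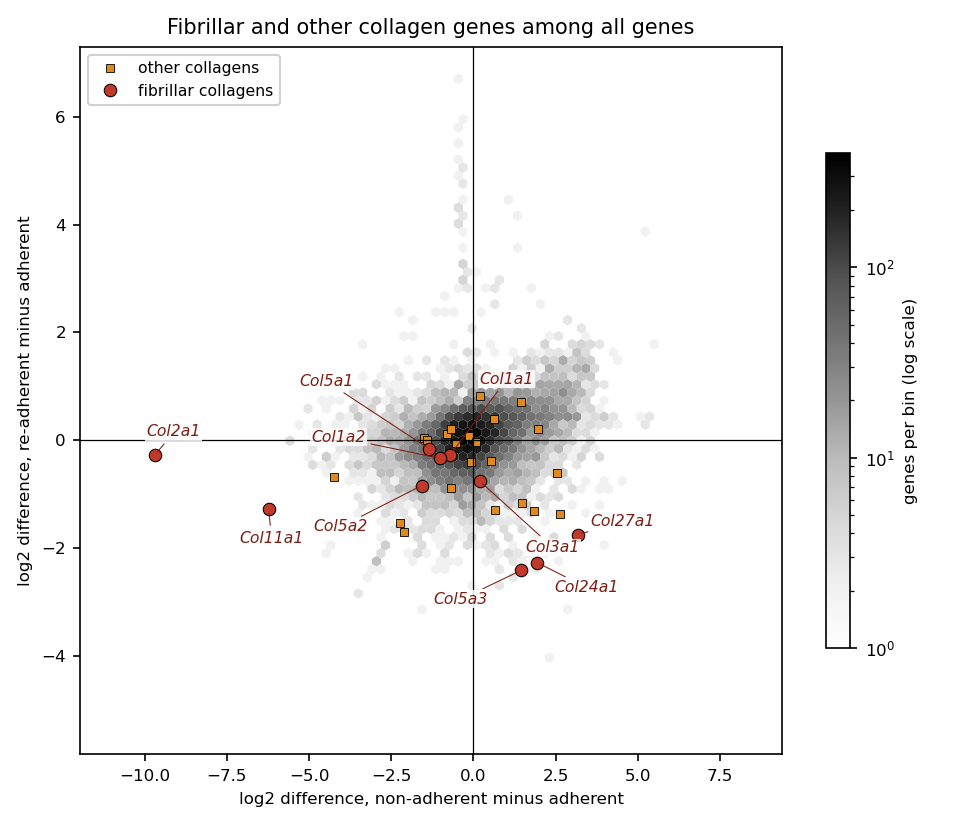
Log2 difference of the re-adherent against the adherent array (vertical) set against that of the non-adherent against the adherent array (horizontal), with all 15393 genes as grey bins, the 10 fibrillar collagen genes as red circles and the other collagens as orange squares. The fibrillar genes all lie below the horizontal line, from -9.69 for Col2a1 to 3.17 for Col27a1 along the horizontal axis, and both axes share the adherent array.

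Procollagen chains are hydroxylated, folded and glycosylated in the endoplasmic reticulum, exported in large carriers, trimmed outside the cell and then crosslinked. Of the 18 genes of hydroxylation and folding, all measured, 9 were over 2-fold lower in suspension, 1 was higher and 8 were within 2-fold. On re-adhesion 8 were higher and 1 lower, and between the plate cultures 1 was lower and 0 higher, with medians of -0.95, 0.83 and 0.01 for the 3 comparisons. The gene higher in suspension and lower on re-adhesion was Colgalt2, not well above background on either plate array. Its bounds were 1.28-fold into suspension and 0.971-fold on re-adhesion, so neither call is guaranteed. The lower gene between the plate cultures was P3h2, a prolyl hydroxylase with signals of 40.0, 6.36 and 13.1, well above background on the adherent array alone. Against that array it was at least 1.81-fold lower after re-adhesion and at least 3.05-fold lower in suspension. Its higher call on re-adhesion has no bound, since both signals were dim. Plod2, which hydroxylates the lysines used in crosslinks, had log2 differences of -2.57 and 2.73. P3h4, a subunit of a hydroxylase complex, had -2.03 and 1.90, and Fkbp10, a chaperone of procollagen, had -2.03 and 2.00, each with a technical error of 0.20.

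Export and trimming genes moved less. Of 11 export genes, all measured, 3 were over 2-fold lower and 0 higher in suspension, with a median of -0.72, and none was past 2-fold between the plate cultures. The 3 were Creb3l2 and Creb3l1, transcription factors that drive the secretory machinery for collagen, with differences of -1.74 and -1.22, and Sec23a, a coat protein of the carriers, with -1.50. On re-adhesion the same genes showed 2.19, 1.07 and 1.55. For removal of the propeptides 6 of 10 listed genes were measured, 1 was over 2-fold lower and 0 higher in suspension, and the median was -0.40. That gene was Pcolce2, an enhancer of the C-propeptide protease, with -2.64 and 2.61, while Pcolce, a relative of the same function, had -0.71 and 0.89 and the N-propeptide protease gene Adamts14 had -0.83 and 0.68.

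The crosslinking oxidases formed the list with the lowest median into suspension. Of 5 genes, all measured, 4 were over 2-fold lower in suspension and 4 over 2-fold higher on re-adhesion, with medians of -3.02 and 2.86. Lox gave signals of 10237, 482 and 8270, differences of -4.51 and 4.46. Loxl4 had -3.85 and 4.21, and Loxl3 had -3.02 and 2.30. Between the plate cultures none of the 5 was past 2-fold, and the median of 0.31 became -0.21 on the control-probe scale.

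Of the genes for proteins that bind fibrils and shape their assembly, more were higher than lower in suspension. Of 14 listed 12 were measured, 5 were over 2-fold higher and 2 lower, and the median was 0.73. Dpt, which speeds fibril formation, had log2 differences of 4.82 and -4.76. Lum, a small proteoglycan that controls fibril width, had 3.56 and -6.41, and Tnxb, a matricellular protein that spaces fibrils, had 3.38 and -2.74. On the re-adherent against the adherent array 5 of the 12 were over 2-fold lower and 0 higher, with a difference of -2.85 for Lum. This list shares Col14a1 with the other collagens.

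Collagen receptors and the genes of collagen breakdown followed different courses. Of 10 receptor genes 9 were measured, 6 were over 2-fold lower and 1 higher in suspension, and 5 were higher and 1 lower on re-adhesion, with medians of -1.35 and 1.04. The collagen-activated kinase Ddr1 had -2.76 and 2.94. The integrin chains Itga11 and Itga1 had -2.29 and -2.25 into suspension, and between the plate cultures their differences were -1.25 and -1.15. Of 12 genes of fibrillar collagen breakdown 11 were measured, 2 were lower and 3 higher in suspension, and the median was 0.58. The 2 lower genes were protease inhibitors, Timp3 at -3.14 and Timp1 at -2.75, and Mmp2, a gelatinase, was at 2.49.

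Genes listed as activators of collagen transcription were spread to both sides. All 22 were measured, 8 were over 2-fold lower and 5 higher in suspension, with a median of -0.46, and between the plate cultures 1 was lower and 0 higher, with a median of 0.06. The largest difference in this list was that of Vgll3, a cofactor of TEAD factors on which the study centred. It gave signals of 666, 15.2 and 534, not well above background in suspension, where it was at least 46.8-fold below the adherent and at least 45.2-fold below the re-adherent level. Of the genes well above background throughout, Ccn2, a matricellular factor induced by mechanical load, had differences of -4.10 and 4.35. Tead1, the DNA-binding partner of YAP and VGLL proteins, had -3.72 and 3.34. The cytokine gene Tgfb1, in contrast, had 2.05 and -1.51. The paper reports that knockdown of Tead1 left the fibrotic genes of these cells unchanged. The paper proposes that VGLL3 raises collagen mRNA without TEAD1, by suppressing a microRNA. A place in this list therefore does not state how a gene acts in these cells. The 8 handling lists together, like the collagens themselves, are described by counts, and none was tested.

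**Figure D4:**
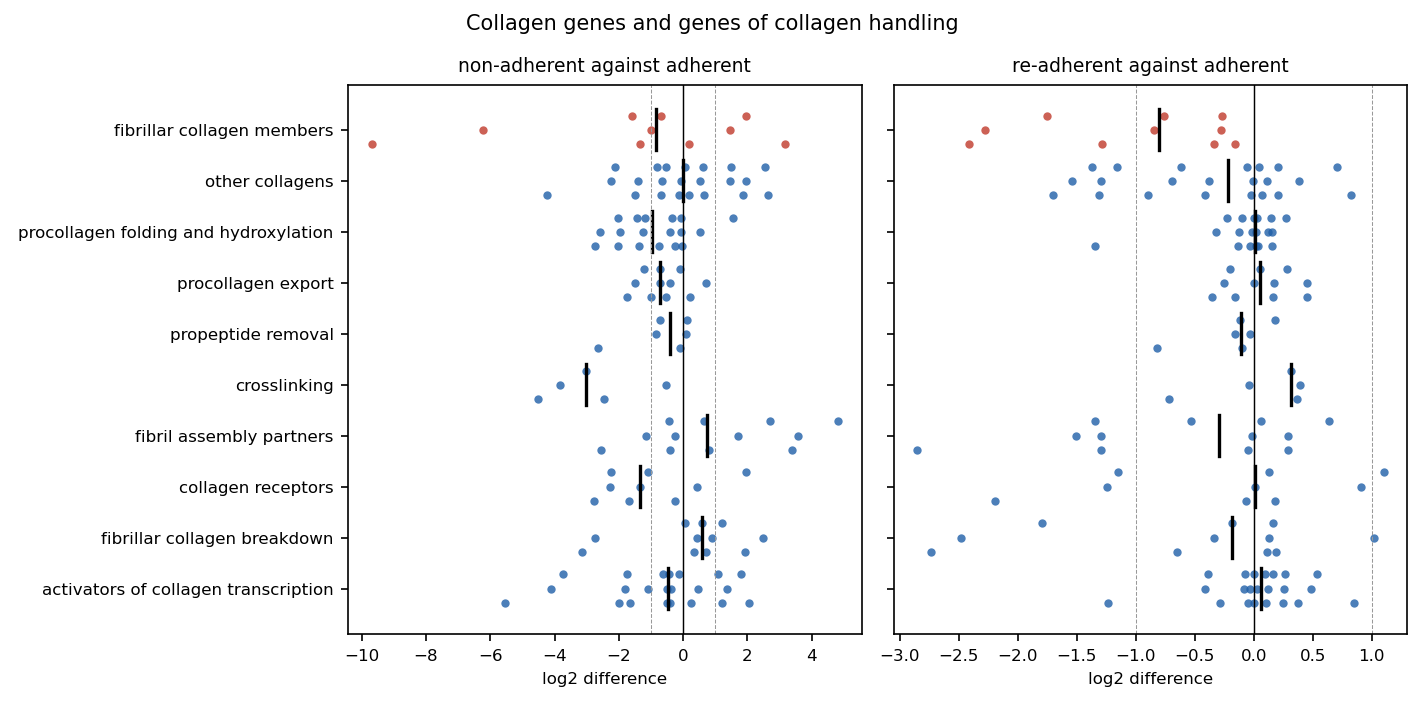
Log2 difference of each measured gene (points) and the median (black bar) of the fibrillar collagens (red), the other collagens and 8 lists of collagen handling (blue), for the non-adherent (left) and the re-adherent array (right) against the adherent array, with dashed lines at 2-fold. Crosslinking has the lowest median on the left, -3.02, and the fibrillar collagens have the lowest on the right, -0.80.

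Markers of other cell types moved with the state of the culture. The 12 myofibroblast markers were well above background on every array, with summed signals of 2108, 506 and 2183 times the 75th percentile, and 5 were over 2-fold lower and 3 higher in suspension. Acta2, smooth muscle actin, gave 435747, 4690 and 345278, and Thy1, a fibroblast surface protein, had log2 differences of -3.50 and 3.27. Postn, a matricellular protein of activated fibroblasts, had -0.12 and -0.09. The 3 that were higher were Dcn, Lum and Fap, which are also in the lists of fibril partners and breakdown.

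Leukocyte markers were present in all 3 cultures in spite of the CD45 depletion. Of 16 markers 14 were measured, all 14 were well above background on every array, and their summed signal was 255, 1620 and 515 times the 75th percentile. In suspension 13 were over 2-fold higher and 0 lower, with a median of 2.80. On the re-adherent against the adherent array 7 were over 2-fold higher, with a median of 1.01. Ptprc, which encodes CD45, gave 355, 2441 and 532, and Adgre1, a macrophage receptor, gave 4077, 38948 and 6413. The fibrillar genes that were higher in suspension, Col5a3, Col24a1 and Col27a1, had their highest array in common with most of these markers. Between the plate cultures the differences of these collagen genes were below 0, and those of 13 of the 14 leukocyte markers were above it. For Col24a1 and Col27a1 the dim re-adherent signals allowed only a bound, and with normexp these differences were -0.15 and -0.41. The part of the leukocyte share in the collagen differences was not tested, and bulk RNA from 1 array per state cannot decide it.

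Endothelial and cardiomyocyte markers completed the check. The 11 endothelial markers, all measured, summed to 38.2, 43.4 and 40.2 times the 75th percentile, and 6 were over 2-fold higher and 1 lower in suspension, with a median of 1.14. On the re-adherent against the adherent array 6 were over 2-fold lower, with a median of -1.62, and Tie1 and Emcn were not well above background there. Cdh5, the cadherin of endothelial junctions, gave signals of 289, 2381 and 26.6 and Pecam1, an endothelial adhesion protein, 127, 316 and 66.0. For both, suspension was the highest state and the re-adherent array the lowest, which is the order seen for Col5a3, Col24a1 and Col27a1. Col3a1 had this order by measured signal, but its 0.19 into suspension lay within the technical error of 0.20 and was -0.24 on the control-probe scale. Kdr, a receptor for VEGF, gave 9446, 7939 and 10321, and Eng, a co-receptor of endothelial cells, 8974, 3658 and 9373, so that both were lowest in suspension. Over the settings tried the Kdr difference ran from -0.77 to 0.81 into suspension and from -1.22 to 0.76 on re-adhesion. Its order thus depended on the setting. Eng stayed lower in suspension under all of them, and the list did not move as a whole. The part of endothelial cells in those values was not tested. Of 9 cardiomyocyte markers 7 were measured, at a summed 1.32, 2.12 and 3.42 times the 75th percentile, and Tnnt2, a sarcomere protein, gave 593, 955 and 1646 and made up most of the last sum. On the re-adherent against the adherent array 4 of the 7 were below 0, with a median of -0.17, and Tnni3 and Actc1, also of the sarcomere, were not well above background there. The 8 quiescent stromal and epicardial markers summed to 14.1, 27.4 and 15.7, with a median of -0.28 into suspension. There 2 were over 2-fold higher, Pi16 and Cd34, and 2 lower, Tcf21 and Dpp4, which was dim. Pi16 gave signals of 288, 2431 and 67.6 and Cd34 gave 1229, 11523 and 555, the order of Cdh5 and Pecam1. Lum, Dcn and Fap of the myofibroblast markers had this order too. The part of stromal cells in the collagen values was not tested.

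Col3a1 and Col5a2 lie next to each other on chromosome 1 in GRCm38.p6, with 0 annotated genes between them. Despite this position their courses differed, with log2 differences of 0.19 and -1.58 into suspension and of -0.95 and 0.73 on re-adhesion. Between the plate cultures the differences were -0.76 and -0.84.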

How the data were processed

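The authors hybridised 1 sample per group to SurePrint G3 Mouse arrays on the same slide and deposited the scanner output of Agilent Feature Extraction 10.10.1.1, per the file headers, with processed signal intensity on a linear scale, already background-subtracted and detrended. The deposited series matrix held the same intensity times 1 constant per array (1.52, 1.52 and 1.62), its normalisation is not given in the sources used here, and it served as an alternative.

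From these files, non-uniform and outlier spots were left out (154, 180 and 175 of 59305 non-control spots in culture order), no non-control spot was saturated, and none of the spots left out was one of the 10 collagens. The log2 signal was reduced by the log2 75th percentile of the array. Spots of a probe were averaged, probes well above background on at least 1 array entered, and a gene was its brightest probe. The files name transcripts, of which 21465 of 37881 matched RefSeq accessions of GRCm38.p6. The array design was built on another assembly, so its coordinates are not given, and the positions printed here are those of GRCm38.p6. Spots within 5 rows and 3 columns of each collagen spot had median differences of -0.33 to 0.04 into suspension, beside -0.31 over all non-control spots. On re-adhesion these medians were 0.12 to 0.52, beside 0.35, and between the plate cultures 0.07 to 0.34, beside 0.19.

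A fold against a signal not well above background is at least the bright level over the higher of the dim signal and the array's floor, its lowest signal called well above background (16.7, 14.0 and 18.3 units). Repeated probes had an SD of 0.100 to 0.107 on the log2 scale, and the median software error was 0.20. The normexp alternative (offset 50, limma 3.58.1 in R 4.3.3) used the median spot signal, because the files hold no mean signal column. Its offset is added to every signal, so differences that involve signals of that size or below shrink by construction. Other steps ran in Python 3.11.15 and were tested on simulated data. The collagens and all lists were chosen with earlier results of these data known. Named genes were the 10, Col11a2, the 5 nearest other collagens, up to 3 genes per handling list with the largest difference into suspension among those well above background on every array, and preset markers. Others named to spell out a count were chosen after their values were seen.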

Additional observations from a re-analysis of the deposited data

How the results depend on the processing

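No paired analysis was possible because a state has only 1 array, and leaving out a replicate was not possible for the same reason. Where a value changed, the cause was not tested unless stated.

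Counts past 2-fold of the 10 fibrillar collagens changed as follows. The shares of all genes past a fold were counted only under the reported setting, at 2-fold and 16-fold. The counts below therefore have no matching share, and whether they moved more than those of all genes was not tested. Requiring signal well above background on all 3 arrays leaves 7 genes by construction, and then 1 instead of 3 was higher in suspension, 1 instead of 3 was lower on re-adhesion, and 2 instead of 4 were lower on the re-adherent against the adherent array. The last count was also 2 with normexp. At 4-fold, 2 instead of 5 were lower and 1 instead of 3 higher in suspension, and 2 instead of 4 were lower between the plate cultures, while at 1.5-fold 5 instead of 3 were higher on re-adhesion. Smaller changes also ended or added calls. The 5 lower in suspension were 4 with scaling on the median spot, without scaling, with quantile normalisation, with the series matrix and with the filter on all arrays, and 6 on the control-probe scale and at 1.5-fold, and the 3 higher there were 2 with normexp. On re-adhesion the 3 higher were 2 without scaling, with quantile normalisation, with the series matrix, with the filter on all arrays and at 4-fold. The 3 lower were 4 without scaling, with quantile normalisation, on the control-probe scale, with the series matrix and at 1.5-fold, and 2 with normexp. Between the plate cultures the 4 lower were 6 without scaling, on the control-probe scale and at 1.5-fold, 5 with quantile normalisation and with the series matrix, and 3 with dim signals raised.

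The median of the 10 into suspension, -0.86, was -0.33 with quantile normalisation and -1.28 on the control-probe scale. On re-adhesion the 0.55 was 0.19 without scaling, 0.28 with the series matrix and reversed to -0.27 with quantile normalisation, as did Col1a1 (-0.37) and Col1a2 (-0.17). Between the plate cultures the -0.80 was -1.07 without scaling, -1.32 on the control-probe scale, -0.40 with normexp and -0.55 with dim signals raised to the array's floor. Part of this is a shift of all genes, whose median moved by -0.36 and -0.27 without scaling on re-adhesion and between the plate cultures, by -0.43 and -0.52 on the control-probe scale into suspension and between the plate cultures, and by -0.27 and -0.18 with the series matrix. Of the single-gene values under alternatives, 251 moved by less than the technical error, 68 moved by more and 2 reversed, and none of the partner-chain differences reversed. On the control-probe scale Col3a1, within its error into suspension, also changed sign, as did Col11a2 between the plate cultures (0.30 to -0.22).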
